A study of Mus musculus with 4 samples.

Results

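Integrated stress response genes, 10 of the 27998 genes in the deposited count tables, were followed across the cells of small intestinal crypts. They were taken by symbol: the transcription factors Atf4, Atf5 and Ddit3, the intracellular effectors Trib3, Chac1, Ddit4 and Nupr1, and the genes of the secreted proteins Stc2, Gdf15 and Fgf21. All 10 were found. The 4 libraries, 2 per genotype, were 3' single-cell RNA-seq of live EpCAM+ CD45- cells sorted from crypts of 8-week-old mice. Controls were floxed Slc7a5 fl/fl littermates. The Slc7a5 IEC-KO mice carried the same floxed alleles with a villin-driven Cre, which is active throughout the intestinal epithelium and is not limited to Paneth cells. How the mice were divided among the libraries is not given. P-values therefore measure the spread between libraries, which may be technical. The members were chosen with the difference between these genotypes already known, so their genotype differences within a class are a description. Counts of members past a threshold stand beside those of all genes, and nothing is read from them.

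The integrated stress response begins with a small set of kinases that sense amino acid shortage, unfolded protein in the endoplasmic reticulum, double-stranded RNA or haem shortage and phosphorylate the initiation factor eIF2. General translation falls while the mRNA of ATF4 is translated better, and ATF4 then switches on genes for amino acid uptake and synthesis, for the factors ATF5 and CHOP (the product of Ddit3), and for feedback inhibitors such as the pseudokinase TRIB3. SLC7A5, also called LAT1, is the exchanger that brings leucine and other large neutral amino acids into the cell. Several proteins of the response leave the cell: GDF15 acts on hindbrain neurons that control appetite, FGF21 is a hormone of fasting and protein shortage, and STC2 is a secreted glycoprotein.

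ATF4 pairs with C/EBP factors on a composite DNA element, and the promoter windows of the members were read for one form of it. The letters searched were TGATGNAA, on both strands, in the 250 bases before and 50 bases after each transcription start (RefSeq windows, GRCm38.p6). All 10 members had a window. The motif was found in windows of 4 members (40% of the 10), against 4.51% of all 27025 genes with a window. Of the 51 other ATF4 and CHOP target genes listed below only 37 had a window matched by symbol, and 35.1% of those (13 of 37) held the motif. The 4 windows are shown 5' to 3' on the strand of the gene, with the match in capitals. In each of them the match lies on the opposite strand, so the capitals are the reverse complement of the letters searched.
Trib3, chr2:152344011-152344310, minus strand: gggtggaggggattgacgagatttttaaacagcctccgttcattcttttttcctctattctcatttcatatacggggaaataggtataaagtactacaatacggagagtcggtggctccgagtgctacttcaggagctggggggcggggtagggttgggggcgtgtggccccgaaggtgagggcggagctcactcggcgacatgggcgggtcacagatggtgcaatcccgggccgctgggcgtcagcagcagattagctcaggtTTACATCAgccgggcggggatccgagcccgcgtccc
Chac1, chr2:119350992-119351291, plus strand: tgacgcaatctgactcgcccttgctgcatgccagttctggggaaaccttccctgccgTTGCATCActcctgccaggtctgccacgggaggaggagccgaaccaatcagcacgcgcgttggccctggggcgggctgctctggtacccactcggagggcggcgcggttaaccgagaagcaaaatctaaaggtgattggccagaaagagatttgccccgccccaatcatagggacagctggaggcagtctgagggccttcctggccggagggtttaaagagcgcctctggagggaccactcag
Nupr1, chr7:126625421-126625720, minus strand: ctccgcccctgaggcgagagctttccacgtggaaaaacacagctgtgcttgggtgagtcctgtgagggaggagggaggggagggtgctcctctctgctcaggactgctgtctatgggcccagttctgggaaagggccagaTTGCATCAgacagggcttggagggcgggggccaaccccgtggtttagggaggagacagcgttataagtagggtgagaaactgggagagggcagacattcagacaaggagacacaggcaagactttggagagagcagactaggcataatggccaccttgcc
Fgf21, chr7:45615441-45615740, minus strand: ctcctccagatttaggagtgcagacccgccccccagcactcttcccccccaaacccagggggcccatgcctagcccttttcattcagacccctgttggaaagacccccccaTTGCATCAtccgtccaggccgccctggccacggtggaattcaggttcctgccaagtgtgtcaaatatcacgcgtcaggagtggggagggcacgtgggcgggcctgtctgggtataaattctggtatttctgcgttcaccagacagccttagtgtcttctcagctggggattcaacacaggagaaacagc
Chac1, Nupr1 and Fgf21 carried the same 8 letters, TTGCATCA, beginning 193, 110 and 139 bases before the start. Trib3 carried TTACATCA, beginning 14 bases after it. The windows of Atf4, Atf5, Ddit3, Ddit4, Stc2 and Gdf15 did not hold these letters, which says nothing about elements of other spelling or place.

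Each library held 3217 to 10004 cells and between 87922473 and 127094508 UMIs (unique molecular identifiers, 1 per captured transcript). Cells were called Paneth class where genes whose symbols start with Defa took 30% or more of their UMIs, a class of 2020 and 1950 cells in the fl/fl libraries and 2019 and 2336 in the IEC-KO libraries. Cells from 20% to under 30% were put in none of the tested classes at these limits. They were 120 and 89 cells in the fl/fl libraries against 1305 and 1218 in the IEC-KO libraries, so the limits left out the genotypes unequally. Cells below 20% were clustered without the members and without the 841 genes listed in the authors' comparison of Paneth cells between genotypes. The clusters were named from markers. This gave 643 and 487 against 3366 and 2957 goblet-like cells, 574 and 471 against 1200 and 1191 cycling TA-like (transit-amplifying) cells, and 235 and 182 against 582 and 535 enterocyte-like cells. Another 2 clusters stayed unnamed and were almost confined to the IEC-KO libraries, 1 led by Plet1 and Tac1 (11 and 5 against 744 and 758 cells) and 1 led by Snhg12 and Zfos1 (0 and 1 against 576 and 481 cells). The first was led by Stc2 too and the second by Nupr1 and Trib3, so their levels there are described only. For the Plet1 and Tac1 cluster 12 goblet markers were counted, against 6 to 14 in the clusters named goblet-like. Its cells are nevertheless not in the goblet-like class or its fits. For the Snhg12 and Zfos1 cluster 3 Paneth markers (Itln1, Habp2 and Pnliprp2) and the goblet marker Ccl6 were counted. Those cells are not in the Paneth class or its fits. In CPM (counts scaled to a common library total), the summed Paneth markers of the Paneth class lay between 350776 and 371200 in all 4 libraries, and summed immune markers at or below 1 in the 4 tested classes. The median depth of a Paneth-class cell was 46965 and 52851.5 UMIs in the fl/fl libraries and 13782 and 20159 in the IEC-KO libraries. Libraries shared at most 132 barcodes. Lyz1, a Paneth granule gene, was counted in 100% of goblet-like, TA-like, enterocyte-like, tuft-like and Plet1 cluster cells even after thinning, so a share of cells with a UMI can include free RNA.

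Slc7a5 itself was counted at 1.16 and 1.04 CPM in the Paneth class of the fl/fl libraries and at 3.42 and 3.73 in the libraries labelled IEC-KO, a log2 difference of 1.71 ± 0.15 (SE, adjusted p = 5.0e-09, edgeR quasi-likelihood test). The direction goes against the label. The tags come from the 3' end, away from the floxed exon, so this count checks nothing about the deletion. In goblet-like cells Slc7a5 was at 2.79 and 3.44 against 4.44 and 5.11 CPM (adjusted p = 0.073, edgeR), and in TA-like cells at 2.78 and 3.17 against 2.24 and 2.56 (adjusted p = 0.66, edgeR).

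Levels below are CPM of the summed cells of a class, scaled by TMM, which sets the typical gene to no change. They follow a gene between the libraries of a class and do not compare genes with each other. Each class was scaled on its own, and Defa genes take unlike parts of the UMIs of the classes. Levels of different classes are therefore not on a common scale. In the Paneth class all 9 members that could be tested were higher in both IEC-KO libraries than in both fl/fl libraries. Of all 12492 genes tested, 34.5% showed that order and 69.5% did not overlap in either direction, and 20.1% were higher with an adjusted p under 0.05, as were 9 of the 9 members, while 19.8% were lower, among them 0 members. The contrast chose the members. Their median log2 fold change was 3.79, beside 0.00 for all genes.

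Among the transcription factors, Atf4 was at 54.0 and 50.7 CPM in the fl/fl libraries and at 112 and 108 in the IEC-KO libraries. Atf4 is regulated mainly at translation, and its transcript differed by 1.07 ± 0.07 on the log2 scale (SE, n = 2 libraries per genotype). Atf5, a relative of ATF4 that is also translated under stress and tied to mitochondrial stress, went from 3.48 and 3.64 to 76.2 and 71.7 CPM. Its log2 fold change was 4.37 ± 0.08 (SE). Ddit3, which encodes the proapoptotic factor CHOP, was at 8.25 and 6.99 against 93.9 and 76.9 CPM, a log2 fold change of 3.48 ± 0.10 (SE). No fl/fl library overlapped an IEC-KO library for these factors, and the transcript of Atf4 differed least.

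Trib3 had the largest fold change of the members. It encodes a pseudokinase that restrains AKT and ATF4. It was nearly silent in fl/fl Paneth-class cells, at 0.660 and 0.483 CPM, and stood at 63.3 and 52.3 in the IEC-KO libraries. The fitted log2 fold change was 6.65 ± 0.13 (SE), the 11th largest of the 12492 genes. Chac1, an enzyme that breaks down glutathione, was at 1.96 and 1.82 against 26.8 and 25.7 CPM (log2 3.79 ± 0.09, SE). Ddit4, also known as REDD1, an inhibitor of mTORC1, was at 13.5 and 12.1 against 26.0 and 24.2 CPM (log2 0.97 ± 0.08, SE). Nupr1, a small stress-responsive chromatin protein, was already high in control Paneth cells, at 883 and 874 CPM, and was at 1714 and 1490 in the IEC-KO libraries (log2 0.87 ± 0.10, SE). Ddit4 and Nupr1 thus had changes near that of Atf4, whereas Trib3 and Chac1 had changes near or above those of Atf5 and Ddit3.

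The secreted members started near zero. Stc2 was at 0.356 and 0.495 CPM in the fl/fl libraries and at 13.5 and 14.1 in the IEC-KO libraries, a log2 fold change of 5.01 ± 0.13 (SE). Gdf15 was at 0.279 and 0.334 against 6.15 and 5.77 CPM, a log2 fold change of 4.26 ± 0.17 (SE). Fgf21 behaved differently. Its Paneth-class UMIs were 8 and 7 in the fl/fl libraries and 7 and 5 in the IEC-KO libraries, too few for the filter on low counts. In CPM these are 0.102 and 0.087 against 0.187 and 0.074, so the genotypes overlapped. The pooled ratio of IEC-KO to fl/fl was 1.22, with an exact 95% interval from counting of 0.520 to 2.78.

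**Figure D1:**
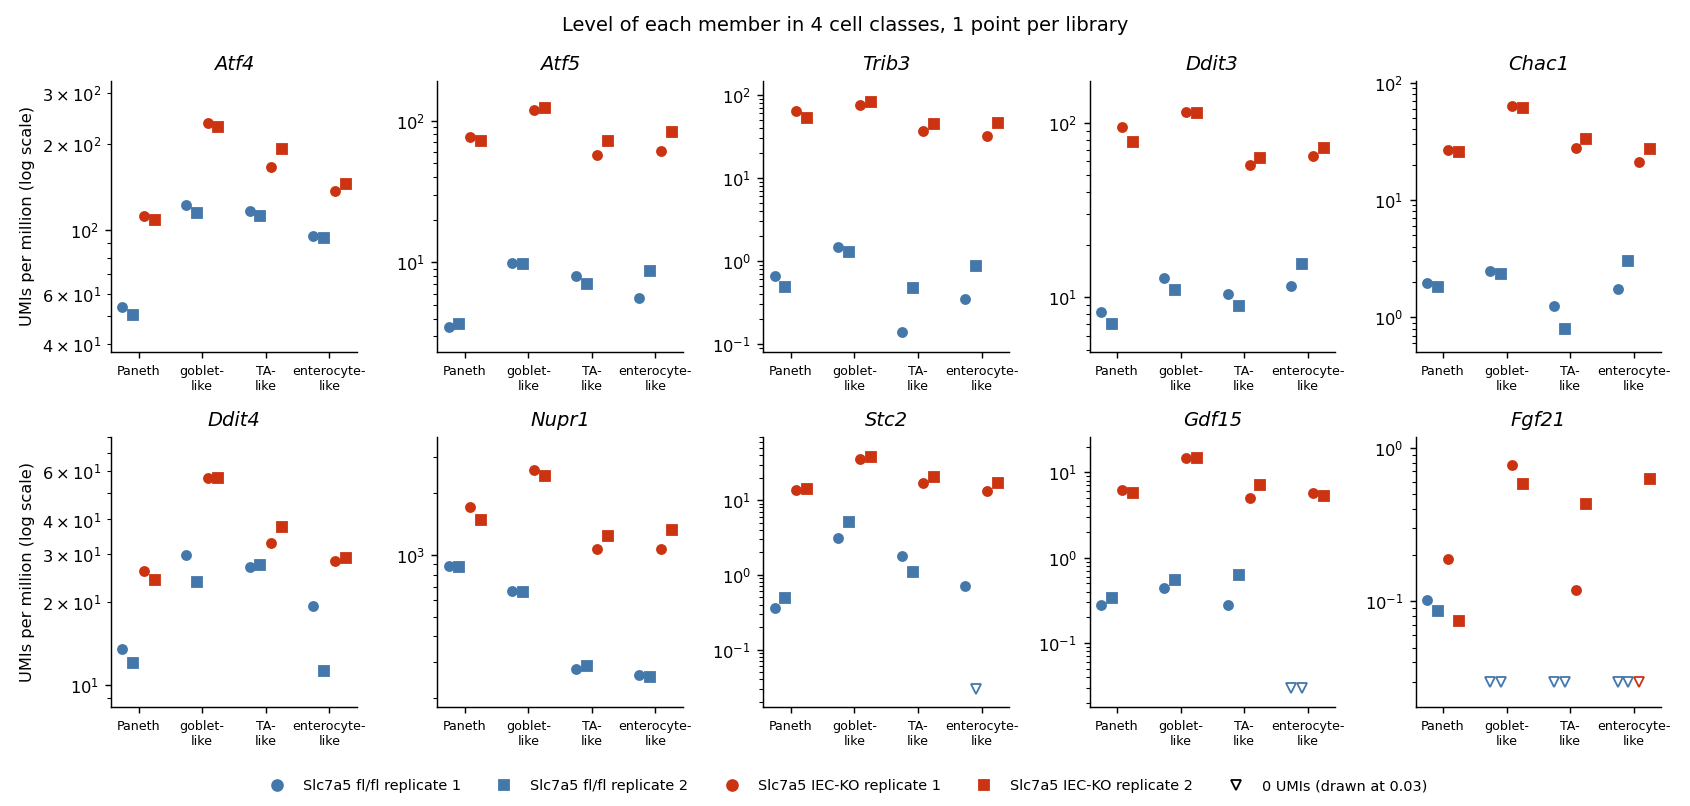
Level of each of the 10 members in CPM (log axis, TMM scaled) in the Paneth, goblet-like, TA-like and enterocyte-like classes, 1 point per library, with fl/fl in blue, IEC-KO in red and triangles for libraries with 0 UMIs. Both IEC-KO points lie above both fl/fl points for 9 members in all 4 classes, while Fgf21 overlaps in the Paneth class, where it had 8, 7, 7 and 5 UMIs.

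Scaling by library size alone moved the median of all genes in the Paneth class up by 0.62 on the log2 scale (Defa genes took 41.2% and 44.0% of the UMIs of the class in the fl/fl libraries and 36.8% and 37.2% in the IEC-KO libraries, and their part in this shift was not tested). The increases of 0.87 to 1.07 for Nupr1, Ddit4 and Atf4 are therefore changes relative to the typical gene. The fitted log2 changes of the 9 members were 0.73 or more under each of the settings tried for the Paneth class, the lowest being that of Nupr1 with a Paneth limit of 40% Defa.

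The same 9 genes were higher in the other classes, which all derive from the same crypts. Summed levels can include free RNA too. The trypsinogen gene Try5 had 1792 and 2662 UMIs in IEC-KO Paneth-class cells and 314 and 368 in goblet-like cells. TA-like cells held 138 and 269 of its UMIs and enterocyte-like cells 47 and 61. The part of free RNA in the levels of the members was not tested. In goblet-like cells Trib3 was at 1.47 and 1.27 against 76.5 and 82.2 CPM (log2 5.84 ± 0.16, SE), and Chac1 at 2.5 and 2.36 against 63.9 and 60.5 (log2 4.67 ± 0.15, SE). Stc2 was at 3.09 and 5.08 against 35.9 and 38.2 CPM, and Nupr1 at 667 and 656 against 2598 and 2426. Gdf15 had only 3 UMIs in each fl/fl library against 303 and 381, a ratio of 30.2 with an exact 95% interval of 13.8 to 82.5. For goblet-like cells 9.66% of 10934 genes were higher past the threshold, as were 9 of the 9 members that passed the filter, and 9.32% were lower, among them 0 members. With at least 10 UMIs asked of every library 7 members were left, without Trib3 and Gdf15. The genotypes did not overlap for these 9 members, nor for 58.5% of all genes, 29.4% with both IEC-KO libraries above. The members' median log2 fold change was 3.24.

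In TA-like cells Atf4 was at 116 and 112 against 166 and 191 CPM and Atf5 at 8.05 and 6.97 against 57.0 and 72.0. Trib3 had 1 and 3 UMIs in the fl/fl libraries against 308 and 518, a ratio of 138 with an exact 95% interval of 53.8 to 509. Ddit4 was at 26.9 and 27.2 against 32.9 and 37.6 CPM, the smallest change of any tested member in the 4 classes (log2 0.39 ± 0.10, SE). That change was 0.28 without IEC-KO replicate 2, 0.38 and 0.40 without fl/fl replicate 1 or 2, 0.28 with called doublets left out and 0.14 in cells thinned to 3500 UMIs, and under each of these Ddit4 was no longer past the threshold. In this class 4.54% of 10787 genes were higher past the threshold, as were 9 of the 9 members that passed the filter on low counts, and 2.85% were lower, among them 0 members. With at least 10 UMIs asked of every library only 5 of the 10 members were left, without Trib3, Chac1, Stc2 and Gdf15, which passed through the IEC-KO libraries where they are high. The libraries did not overlap for the 9 members or for 49.6% of all genes, 25.2% with both IEC-KO libraries above.

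In enterocyte-like cells, the tested class with the fewest cells, Atf5 was at 5.63 and 8.64 against 60.5 and 82.9 CPM and Ddit3 at 11.6 and 15.5 against 64.6 and 71.6. Trib3 had 1 and 2 UMIs against 117 and 219, a ratio of 68.3 with an exact 95% interval of 23.2 to 333, and Stc2 had 2 and 0 against 49 and 82, with an interval for the ratio of 10.8 to 333. Gdf15 was not counted in either fl/fl library and had 21 and 25 UMIs in the IEC-KO libraries, which makes it at least 9.35-fold higher if 3 counts are allowed over the fl/fl sums. Atf4 and Ddit4 had the smallest changes (log2 0.57 ± 0.12 and 0.88 ± 0.20, SE). Neither was past the threshold without fl/fl replicate 2 (log2 0.56 and 0.57), in thinned cells (0.52 and 0.76) or with called doublets left out (0.47 and 0.76). Without fl/fl replicate 1 Atf4 was not either (0.59), while the change of Ddit4 became 1.35. Here 2.96% of 8992 genes were higher past the threshold, as were 9 of the 9 members that passed the filter, and 1.42% were lower, among them 0 members. Trib3, Stc2, Gdf15 and Chac1 passed it through the IEC-KO libraries, and with at least 10 UMIs asked of every library 5 members were left. Again the 9 members did not overlap, nor did 45.7% of all genes, 22.9% with both IEC-KO libraries above.

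**Figure D2:**
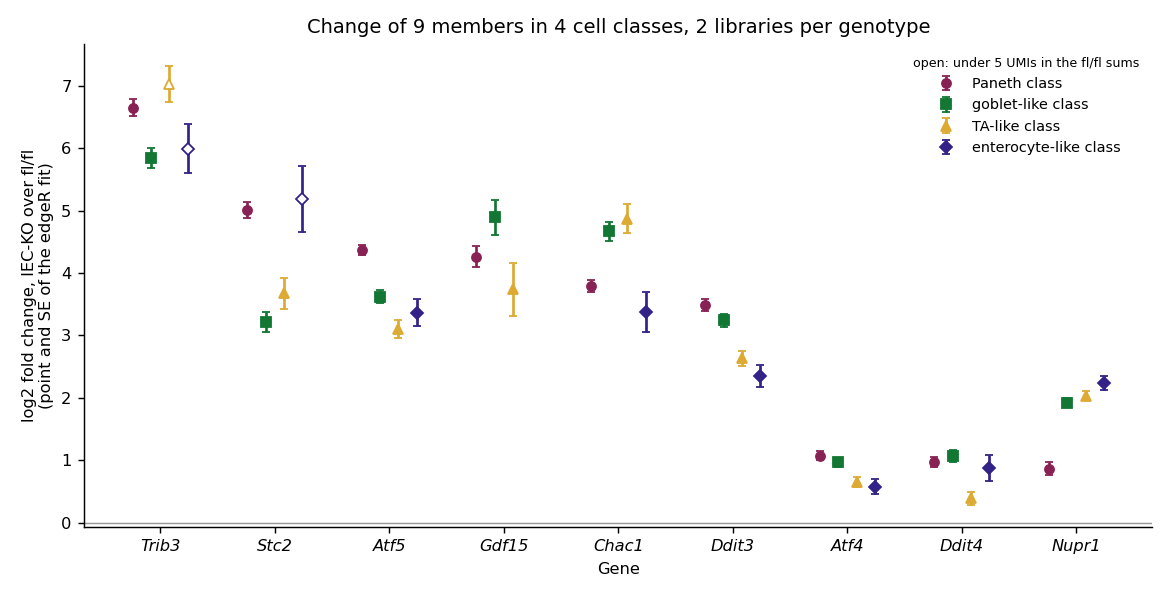
Fitted log2 fold change of IEC-KO over fl/fl for 9 members in 4 cell classes, with the standard error of the edgeR fit as bars and 2 libraries per genotype. Open symbols mark fits that rest on fewer than 5 UMIs in the fl/fl sums, and Gdf15 in the enterocyte-like class, at 0 UMIs there, is not drawn. Of the fits drawn, Trib3 is highest in each class and Atf4 and Ddit4 are near 1 or below. The Gdf15 fit that is not drawn is larger than that of Trib3 in the enterocyte-like class (7.22 against 5.99).

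Fgf21 was seen in the IEC-KO libraries outside the Paneth class. Over all cells it had 8 and 7 UMIs in the fl/fl libraries, all of them in Paneth-class cells, and 50 and 48 in the IEC-KO libraries. There the goblet-like cells held 16 and 15, the Plet1 and Tac1 cluster 18 and 15, TA-like cells 1 and 5, enterocyte-like cells 0 and 3, and Paneth-class cells 7 and 5. The fl/fl goblet-like cells held none. Allowing 3 counts over those 2 libraries, Fgf21 was at least 2.73-fold higher in the IEC-KO goblet-like cells. At equal depth it was detected in 0.81% and 0.79% of the cells of the Plet1 and Tac1 cluster and in 0.36% and 0.20% of all goblet-like cells.

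Goblet-like cells of the 2 genotypes came mostly from different clusters. A cluster led by Serpina1b and C2cd4a held 399 and 312 of the fl/fl goblet-like cells, and 96 and 126 of the IEC-KO ones. The other IEC-KO cells lay in clusters led by Ccl9 and Ptpro (862 and 697 cells), Zg16 and Gsta4 (764 and 626), Agr2 and Rep15 (739 and 627), Sprr2a3 and Hsd17b2 (519 and 493) and Guca2a and 1810043G02Rik (386 and 388). Within the Serpina1b cluster, at 3500 UMIs per cell, Trib3 was detected in 1.0% and 0.64% of fl/fl cells and in 5.2% and 11.9% of IEC-KO cells, and Chac1 in 0.50% and 0.64% against 15.6% and 18.3%. The order of the genotypes was the same inside that cluster, with lower IEC-KO shares of Trib3 than in the class as a whole (20.0% and 23.4%). The highest Trib3 shares were in the Sprr2a3 cluster, which held 0 fl/fl cells. There Trib3 was detected in 46.6% and 44.4% of cells, Stc2 in 27.4% and 24.7% and Gdf15 in 12.7% and 11.8%. In the cluster led by Snhg12 and Zfos1, whose cells took a median of 13.7% of their UMIs from Defa genes, Trib3 was detected in 42.7% and 36.6%, Ddit3 in 49.7% and 48.0%, but Chac1 in 13.5% and 11.0%. In the Plet1 and Tac1 cluster Chac1 was detected in 34.3% and 30.9% and Stc2 in 27.6% and 26.8%.

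The UMIs of a member were also set against those of Trib3 in the same cells. In the IEC-KO libraries Nupr1 had 25.6 to 34.0 UMIs for each Trib3 UMI over the classes and both unnamed clusters. Stc2 had 0.214 and 0.269 UMIs per Trib3 UMI in the Paneth class, 0.470 and 0.465 in goblet-like cells and 0.697 and 0.665 in the Plet1 and Tac1 cluster. Chac1 had 0.423 and 0.491 in the Paneth class, 0.202 and 0.262 in the Snhg12 and Zfos1 cluster and 0.801 and 0.848 in the Plet1 and Tac1 cluster. TA-like cells had 0.468 and 0.467 Stc2 UMIs per Trib3 UMI. The part of free RNA in these values was not tested.

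The difference of the genotype changes between the Paneth and goblet-like classes was tested in its own fit, with the library as a block. The members were not chosen on this difference, and the goblet-like cells compared came mostly from different clusters in the 2 genotypes, as given above. The Plet1 and Tac1 cluster, led by Stc2 too, was not in this fit. It held 522 and 616 Stc2 UMIs in the IEC-KO libraries, beside 745 and 986 in the goblet-like cells. Its part in the differences was not tested. Over all 12030 genes tested the change was higher in the Paneth class for 9.55% and lower for 6.33%. It was higher for 2 of the 10 members. Stc2 changed more in the Paneth class by 1.83 ± 0.28 on the log2 scale (SE, adjusted p = 1.4e-07, edgeR), and Atf5 by 0.77 ± 0.16 (SE, adjusted p = 6.6e-05, edgeR). Lower changes were found for Nupr1 and Chac1. The change of Nupr1 was smaller in the Paneth class (log2 difference -1.05 ± 0.07, SE, adjusted p = 2.0e-27, edgeR), as was that of Chac1 (-0.87 ± 0.25, SE, adjusted p = 0.0076, edgeR). Fgf21 was past the threshold too (-6.49 ± 2.31, SE, adjusted p = 0.039, edgeR), but it had 0 UMIs in the goblet-like cells of both fl/fl libraries and no difference is read from it. It did not pass when any 1 of the 4 libraries was left out (adjusted p = 0.087 to 0.29, edgeR) or with a replicate block (0.063). For Trib3 the difference was 0.78 ± 0.43, for Atf4 0.11 ± 0.06, for Ddit3 0.23 ± 0.14, for Ddit4 -0.10 ± 0.10 and for Gdf15 -0.61 ± 0.58 (SE), none past the threshold. In the fl/fl goblet-like cells Trib3 had only 10 and 7 UMIs and Gdf15 only 3 in each library. In cells thinned to 3500 UMIs Fgf21 was not tested and Nupr1 alone of the other members passed, with Stc2 at 1.23 ± 0.76 (adjusted p = 0.45), Atf5 at 1.01 ± 0.33 (adjusted p = 0.067) and Chac1 at -1.29 ± 0.56 (SE, adjusted p = 0.23, edgeR). The call of Chac1 was also lost without fl/fl replicate 1 or 2 (adjusted p = 0.16 and 0.080, edgeR), with DESeq2 (0.089) and with library size as the only scaling (0.35, edgeR). With library size as the only scaling 6 members changed more in the Paneth class, a scaling that moves the median of all genes by 0.58.

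Shares of positive cells depend on depth, so each cell was thinned to 3500 UMIs. In the Paneth class Trib3 was then detected in 0.20% and 0.10% of fl/fl cells (4 and 2 cells) and in 22.9% and 21.5% of IEC-KO cells (exact binomial 95% intervals 21.1% to 24.8% and 19.9% to 23.3%, counting error only). Ddit3 was detected in 2.6% and 1.5% against 33.9% and 29.6%, Atf5 in 1.1% and 0.72% against 28.7% and 28.7%, and Atf4 in 13.4% and 13.9% against 39.1% and 39.7%. Stc2 reached 5.3% and 7.2% and Gdf15 2.4% and 2.7% of IEC-KO cells. Nupr1 was near saturation, in 88.8% and 87.8% against 99.8% and 99.7% of cells. Fgf21 was too rare for this depth, with a UMI in 0 of 2020 and 0 of 1950 fl/fl cells and in 1 of 2019 and 0 of 2336 IEC-KO cells. With all UMIs it was detected in 0.40% and 0.31% of fl/fl and 0.35% and 0.21% of IEC-KO Paneth-class cells, so the genotypes overlapped. With 2 libraries per genotype the two-sided exact permutation test over libraries cannot go below p = 0.33. Thinning to a total evens out the UMIs of cells, as library size does for the sums. With library size alone the median of all genes in this class was 0.62 higher on the log2 scale. These shares are thus not relative to the typical gene, and shares of all genes were not computed.

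Without thinning, Ddit4 was detected in 39.4% and 37.9% of fl/fl and 35.5% and 46.4% of IEC-KO Paneth-class cells, so the genotypes overlapped, whereas at 3500 UMIs it was in 4.3% and 3.9% against 11.0% and 10.1%. Unthinned Atf4 was detected in 82.7% and 83.5% against 83.5% and 91.7%. Trib3 remained apart, in 2.6% and 1.9% of fl/fl cells and 61.9% and 71.3% of IEC-KO cells. Among the clusters with over 50 IEC-KO cells in each library the lowest Trib3 shares at equal depth were 5.2% and 11.9%, in the Serpina1b cluster, and 8.5% and 10.7%, in the TA-like cluster led by Ube2c and Cenpa. Tuft-like cells, at 20.5% and 18.3%, and enteroendocrine-like cells, at 15.8% and 16.0%, were also positive. In fl/fl TA-like cells Trib3 was detected in 0 of 574 and 1 of 471.

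**Figure D3:**
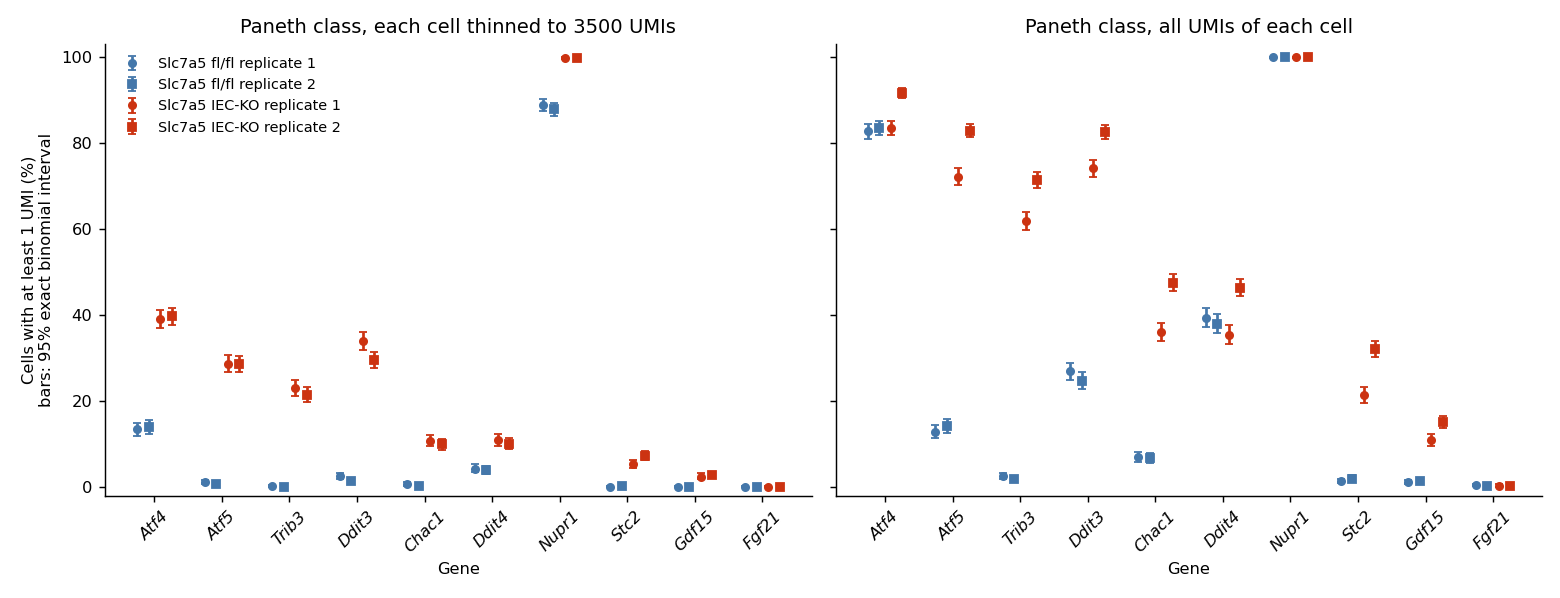
Percentage of Paneth-class cells with at least 1 UMI of each member, by library, with every cell thinned to 3500 UMIs (left) and with all UMIs (right). Bars are exact 95% binomial intervals. At equal depth both IEC-KO libraries lie above both fl/fl libraries for 9 members, while unthinned Ddit4 overlaps. That order was not counted over all genes, and nothing is read from the number of members.

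More members were detected per Paneth-class cell in the IEC-KO libraries. The mean number per cell is the sum of the 10 shares of positive cells. The members were chosen with the genotype difference known, so these numbers are a description and say nothing of joint detection. At 3500 UMIs a mean of 1.11 and 1.09 of the 10 members was detected per fl/fl cell, mostly Nupr1, and 2.54 and 2.49 per IEC-KO cell. At least 5 were detected in 1 of 2020 and 0 of 1950 fl/fl cells and in 5.15% and 3.98% of IEC-KO cells. In goblet-like cells the means were 1.42 and 1.33 against 2.85 and 2.91, and 5 or more members were detected in 0 of 643 and 0 of 487 fl/fl cells against 12.9% and 12.9%. The Sprr2a3 cluster reached 42.4% and 35.7% of cells with 5 or more, the Plet1 and Tac1 cluster 30.4% and 28.5%, and the Snhg12 and Zfos1 cluster 18.8% and 16.0%. TA-like cells reached 1.42% and 2.94%.

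**Figure D4:**
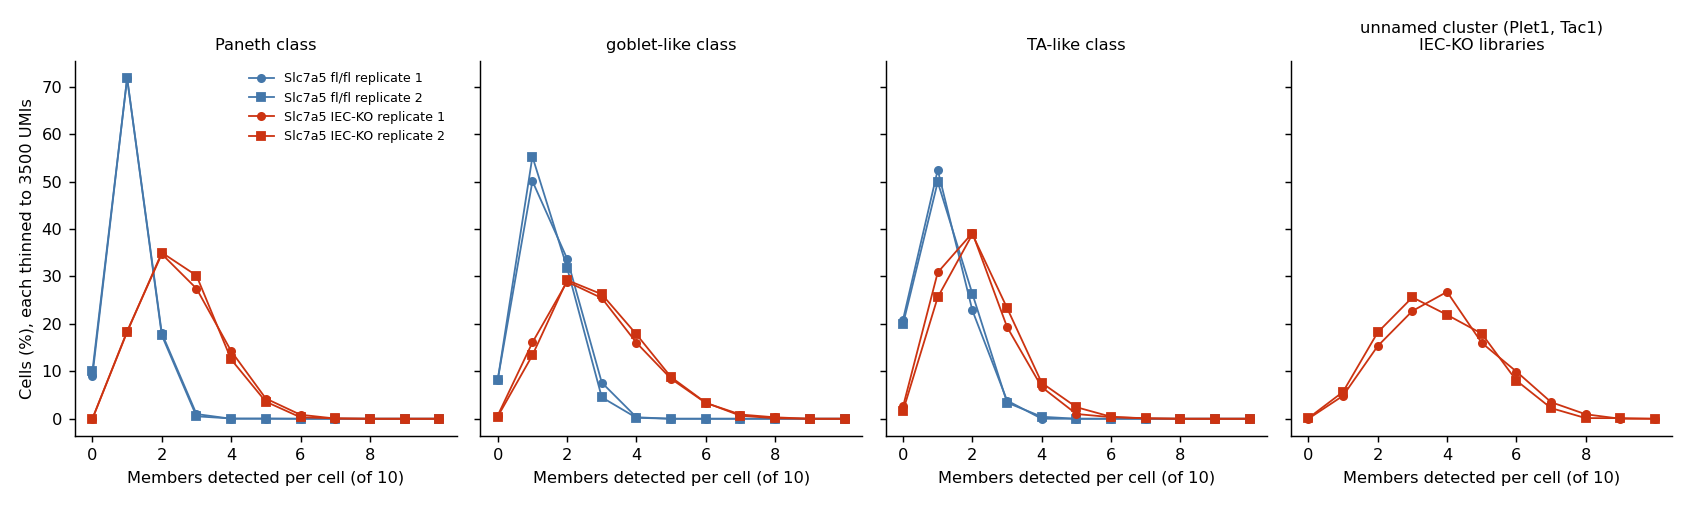
Percentage of cells with each number of detected members, from 0 to 10, at 3500 UMIs per cell, 1 line per library. The fl/fl lines peak at 1 member and the IEC-KO lines at 2 in the Paneth, goblet-like and TA-like classes, and at 3 or 4 in the unnamed Plet1 and Tac1 cluster, which is drawn for the IEC-KO libraries only.

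Within the Paneth class the members were found together about as often as their separate shares give. For each of the 36 pairs of the 9 members other than Fgf21, the cells with both were divided by the number that the product of the 2 shares gives. In the IEC-KO libraries the median ratio was 1.01 and 1.00, with 23 and 18 of 36 pairs above 1. Nupr1 was detected in 2014 of 2019 and 2329 of 2336 of these cells. The ratios of its pairs are therefore held near 1 in advance, and they enter the median and the count. Trib3 with Ddit3 had a ratio of 1.31 in replicate 1 (206 cells against 157) and 1.03 in replicate 2 (153 against 149). Trib3 with Ddit4 had 1.32 and 0.92, so neither pair held its ratio between libraries. Trib3 with all 4966 and 5132 genes detected in 2% or more of cells had a median ratio of 1.02 in each library, with the middle 95% between 0.65 and 1.43 and between 0.65 and 1.41, and 342 and 2488 genes ranked above Ddit3. The genes with the highest ratio to Trib3 in both libraries were Got2 (1.59 and 1.52), Actr10 (1.59 and 1.49), Glce (1.56 and 1.44), Rock1 (1.47 and 1.42) and Abcf2 (1.40 and 1.62), the top of a list of 4792 genes. With each cell thinned to 1500 UMIs outside the Defa genes, other genes led, namely Clec2e, Serpina10, Rab22a, Nt5c3 and Dcps. The leading genes thus changed with the thinning. All were chosen for their ratio, and none is a member.

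In goblet-like cells the median ratio was 1.26 and 1.14, and 35 and 36 of 36 pairs were above 1. Pairs with Nupr1, detected in 3307 of 3366 and 2920 of 2957 of these cells, are held near 1 here too. Enterocyte-like cells had medians of 1.13 and 1.10 (26 and 29 pairs above 1) and TA-like cells 1.06 and 1.11 (26 and 29), so goblet-like replicate 2 lay near these classes. No difference between the classes was tested. Called doublets were kept in these ratios. They were 71 and 53 of the enterocyte-like and 142 and 131 of the TA-like cells of the IEC-KO libraries. In goblet-like cells they were 157 and 132. Their part in the ratios is not given here. In goblet-like cells Trib3 with Ddit3 had ratios of 1.56 and 1.38, Trib3 with Stc2 1.46 and 1.40, Trib3 with Gdf15 1.81 and 1.36. Ddit3 was detected in 44.5% and 40.7% of Trib3-positive and 24.5% and 25.9% of Trib3-negative goblet-like cells. The class is a mixture of clusters at different levels, and inside the single clusters the medians were lower, at 1.08 and 1.02 in the Ccl9 cluster, 1.10 and 1.09 in the Zg16 cluster, 1.13 and 1.02 in the Agr2 cluster, 1.07 and 1.05 in the Guca2a cluster, and 1.04 and 1.00 in the Sprr2a3 cluster. The unnamed clusters had medians of 1.07 and 1.07 (Plet1) and 1.05 and 1.00 (Snhg12).

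**Figure D5:**
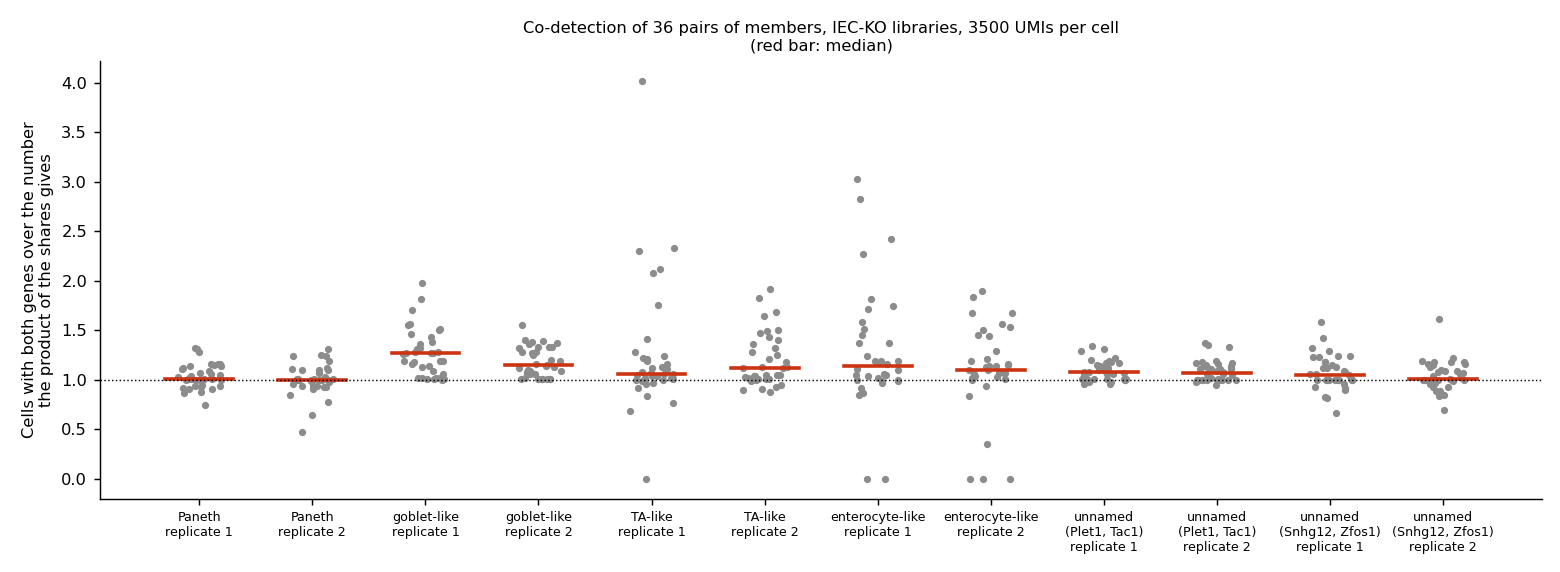
Cells with both genes over the number that the product of their shares gives, for 36 pairs of members in the IEC-KO libraries at 3500 UMIs per cell, 1 point per pair, with the median as a red bar and a dotted line at 1. The medians are 1.01 and 1.00 in the Paneth class, 1.26 and 1.14 in the goblet-like class, 1.06 and 1.11 in the TA-like class and 1.13 and 1.10 in the enterocyte-like class. Pairs with Nupr1 enter each median and are held near 1 in the Paneth and goblet-like classes.

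The members were also counted by the Defa share of the cell. With each cell thinned to 1500 UMIs outside the Defa genes, Trib3 was detected in 17.5% and 17.7% of IEC-KO cells with 20% to 30% of UMIs from Defa genes, in 19.1% and 14.8% of cells with 30% to 40%, and in 14.0% and 14.1% of cells with 40% or more. The same shares were 30.4% and 27.6%, 27.5% and 27.9%, and 24.2% and 22.7% for Atf4. In fl/fl cells of the 30% to 40% band Trib3 was in 0.14% and 0%. At the same depth the trypsinogen gene Try5 was detected in 9.02% and 9.04% of Trib3-positive IEC-KO Paneth-class cells and in 8.47% and 8.78% of Trib3-negative ones.

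Over 16 sums (4 classes in 4 libraries, which share genotype, depth and free RNA within a library) the profile of Trib3 was most like those of Adm2, Chac1, Ddit3, Atf5 and Adig, with Pearson's r of 0.99, 0.99, 0.98, 0.98 and 0.98 on the log2 scale, out of 11863 genes. Gdf15 came 8th, Stc2 24th, Nupr1 51st, Atf4 159th, Ddit4 166th and Fgf21 167th. The members were chosen with the genotype difference known, and these sums span it, so the ranks and values of r are a description. Defa genes take unlike parts of the UMIs of the classes, and the part of this in r was not tested. Ddit4 was closest to the asparagine synthetase gene Asns (r = 0.96), Atf4 to the glycyl-tRNA synthetase gene Gars (r = 0.99), and Nupr1 to the amino acid exchanger gene Slc1a4 (r = 0.97). The profile of Atf4 was like that of Ddit4 (r = 0.94) and less like those of Trib3 (0.73) and Nupr1 (0.52).

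Of 51 other known targets of ATF4 and CHOP, 48 were higher and 1 was lower past the threshold in the Paneth class, 44 and 0 of 50 tested in goblet-like cells, 39 and 0 of 49 in TA-like cells and 28 and 0 of 46 in enterocyte-like cells. Past the same threshold 20.1% of all genes were higher and 19.8% lower in the Paneth class, and 9.66% and 9.32% in goblet-like cells. The shares were 4.54% and 2.85% in TA-like cells and 2.96% and 1.42% in enterocyte-like cells. They stand beside the counts of the lists below too. The 51 targets and the lists below were chosen with earlier results of these data known, so their counts and medians are a description. The median log2 fold change of the 51 targets in the Paneth class was 1.12, beside 0.00 for all genes. Adm2, the gene of a secreted peptide of the calcitonin family, was at 1.42 ± 0.03 against 47.2 ± 5.7 CPM (SD, n = 2), and Cth, cystathionine gamma-lyase, at 3.80 ± 0.07 against 28.2 ± 0.2. Aldh1l2, a mitochondrial folate enzyme, was at 0.564 ± 0.026 against 6.84 ± 0.13, and Slc7a3, a cationic amino acid transporter, at 0.019 ± 0.027 against 3.77 ± 0.04. The one lower gene was Tnfrsf10b, the TRAIL receptor that CHOP is known to induce, at 0.257 ± 0.040 against 0.092 ± 0.017 CPM (log2 -1.42 ± 0.46, SE, adjusted p = 0.018, edgeR). The IEC-KO level of Tnfrsf10b and the fl/fl level of Slc7a3 rest on few UMIs.

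Of 15 upstream genes for the eIF2 kinases, the exchange factor eIF2B and the phosphatase subunits, 6 were higher and 0 lower in the Paneth class, with a median log2 fold change of 0.16. The largest was Ppp1r15a, the inducible subunit (GADD34) that removes the phosphate from eIF2, at 1.61 ± 0.06 against 6.17 ± 0.51 CPM (SD). Eif2b3, Eif2b1 and Eif2b4 followed with log2 changes of 0.55, 0.53 and 0.43. Of 8 partner transcription factors 5 were higher, Atf3 (log2 2.91 ± 0.16), Cebpg (1.74 ± 0.08) and Cebpb (1.61 ± 0.15) most, and 2 were lower, Batf2 (-1.62 ± 0.17) and Fos (-0.33 ± 0.09, SE).

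Of 19 chaperone and folding genes under ATF6 and XBP1, the other arms of the endoplasmic reticulum response, 4 were higher and 5 lower in the Paneth class (median log2 -0.05), while 1 was higher and 13 lower in goblet-like cells (median -0.35). Sel1l (log2 0.99 ± 0.07) and Xbp1 (0.55 ± 0.07) were higher in the Paneth class, and Hspa5, the chaperone BiP, was too (0.18 ± 0.07, adjusted p = 0.045, edgeR). Derl3 (-1.39 ± 0.18), Sdf2l1 (-0.69 ± 0.07) and Calr (-0.31 ± 0.08, SE) were lower. Of 7 mitochondrial chaperones and proteases 3 were higher and 0 lower, Lonp1 (log2 1.48 ± 0.08), Hspa9 (1.3 ± 0.07) and Dnaja3 (0.91 ± 0.09, SE).

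The receptors of the secreted members were scarcely counted in these epithelial cells. Gfral, the GDF15 receptor of the hindbrain, had 0 UMIs in all 4 libraries, and its coreceptor Ret 139 to 201. The FGF21 coreceptor Klb had 6 to 22 UMIs per library, Fgfr4 23 to 32 and Fgfr1 1 to 7. Ret was lower in the Paneth class at 1.5 ± 0.12 against 1.06 ± 0.14 CPM (SD, adjusted p = 0.049, edgeR), and Fgfr4 and Klb did not pass the threshold.

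Genes that mark other stresses were measured beside the members. Of 10 p53 targets, 2 were higher and 3 lower in the Paneth class, near the 20.1% and 19.8% of all genes. Trp53inp1, which is also known as a partner of stress-induced autophagy, was higher (log2 1.07 ± 0.09), and Sesn1 and Ccng1 were lower (-0.97 ± 0.16 and -0.69 ± 0.10, SE). Of 16 genes induced by tissue dissociation, 8 were higher and 2 lower in the Paneth class, 2 and 1 in goblet-like cells, 2 and 0 in TA-like cells, and 0 and 1 of 15 in enterocyte-like cells. Atf3, which is on that list too, Hspa1b (log2 1.13 ± 0.13), Hspa1a (0.62 ± 0.10) and Junb (0.50 ± 0.07, SE) were higher in the Paneth class, while Fos and Fosb were lower. The part of dissociation in the levels of the members was not tested.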

How the data were processed

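Live EpCAM+ CD45- crypt cells were profiled by 10x 3' RNA-seq in 4 libraries, 2 per genotype. The deposited values are counts of UMIs per gene and cell, which the authors made with Cell Ranger 2.1.1 against mm10, per the submitters' processing notes. All 26498 barcodes were kept, doublets included. Barcodes were classed by Defa share and those below 20% clustered (scanpy 1.11.5, leidenalg 0.10.2, Python 3.11.15) without the members and the 841 genes of the authors' Paneth cell comparison. Counts were summed per library and class, scaled by TMM and tested with the edgeR 4.0.16 quasi-likelihood test (R 4.3.3, filterByExpr, Benjamini-Hochberg adjustment over all genes tested, threshold 0.05), which was tested on simulated data first. In the Paneth class simulation over 12492 genes, 84% of genes changed by a log2 fold of 1 and 94% of those changed by 2 were recovered. That simulation gave all genes a common dispersion and changed far fewer genes than were called in the data, equally in both directions. Its recovery may therefore not hold for the data. For shares, cells were thinned once to 3500 UMIs. Intervals are exact binomial or exact conditional and cover counting error only. Promoter windows came from RefSeq. The members and gene lists were chosen with earlier results of these data known. Named from each list were up to 4 genes in each direction with the largest Paneth-class change past the threshold and no overlap, and for Trib3 the 5 genes most alike in profile and most often co-detected. Alternatives were DESeq2 1.42.0, other scalings and filters, other depths, a replicate block, doublets left out, other Defa limits and each library left out. Labels gave the genotypes, and replicate numbers did not pair the libraries.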

Additional observations from a re-analysis of the deposited data

Results flagged for a closer look

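The genotype change of 4 members differed between the Paneth and goblet-like classes by the edgeR interaction test across 12030 genes, adjusted by Benjamini-Hochberg. Over all these genes the change was higher in the Paneth class for 9.55% and lower for 6.33%. The members were chosen with earlier results of these data known, so these differences are a description. The log2 change in the Paneth class minus that in the goblet-like class was 1.83 for Stc2, 0.77 for Atf5, -1.05 for Nupr1 and -0.87 for Chac1. In cells thinned to 3500 UMIs Nupr1 alone of these passed (adjusted p = 0.45 for Stc2, 0.067 for Atf5 and 0.23 for Chac1, edgeR), and Chac1 did not pass without fl/fl replicate 1 or 2 either (0.16 and 0.080). Fgf21, at -6.49, passed the threshold too, but rests on 0 UMIs in the goblet-like cells of both fl/fl libraries, was not tested in thinned cells and did not pass when any 1 library was left out (0.087 to 0.29, edgeR). No difference is read from it. Nupr1 was higher in the IEC-KO libraries in both classes, by less in the Paneth class. Its fl/fl levels were 883 and 874 CPM in the Paneth class and 667 and 656 in goblet-like cells. These were scaled within each class and are not compared. Most fl/fl goblet-like cells came from the Serpina1b cluster and most IEC-KO ones from other clusters, and the part of this in the differences was not tested. The Plet1 and Tac1 cluster, led by Stc2 too, was outside the goblet-like class, and its part was not tested either.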

How the results depend on the processing

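All 135 recomputed values of the members and of Slc7a5 in the Paneth class and all 133 in goblet-like cells kept their direction and side of the threshold. In TA-like cells 123 of 131 did and in enterocyte-like cells 122 of 130, the other 8 in each losing the call. For the difference between classes 127 of 145 did. Counts of genes higher and lower past the threshold moved more, and the cause was not tested. With DESeq2 they were 1636 and 1487 (Paneth class), 469 and 456 (goblet-like), 189 and 75 (TA-like), 74 and 24 (enterocyte-like) and 336 and 189 (difference between classes, with 1 member lower). With thinned cells they were 961 and 933, 519 and 478, 179 and 96, 49 and 33, and 325 and 215, with 0 members higher and 1 lower in the last. With library size only they were 8795 and 454 in the Paneth class and 6859 and 104 for the difference between classes, where 6 members were higher and Ddit4 reversed to 0.46, and 586 genes were lower in TA-like cells. Leaving out doublets gave 203 lower in TA-like cells and 85 and 41 in enterocyte-like cells. A Paneth limit of 40% Defa, chosen after seeing the data, gave 1404 and 1258, and 610 and 320 for the difference. With at least 10 UMIs in every library only 5 members were tested and called in each of the TA-like and enterocyte-like classes. Leaving out 1 library gave 1971 to 2318 higher and 1979 to 2238 lower (Paneth), 651 to 987 and 586 to 959 (goblet-like), 298 to 807 and 166 to 561 (TA-like, 8 to 9 members), 112 to 369 and 49 to 218 (enterocyte-like, 7 to 9 members), and 644 to 942 and 419 to 639 (difference, 2 members higher and 1 to 2 lower). The replicate numbers did not pair the libraries (correlations of -0.0050 to 0.034). A replicate block gave 548 genes lower in TA-like cells and moved Fgf21 in the difference to -6.50 (adjusted p = 0.063, edgeR). The Trib3 share difference in the Paneth class was 22.1 percentage points at 3500 UMIs, 13.4 at 2000, 42.3 at 8000, 16.3 at 1500 UMIs outside Defa genes, 64.3 unthinned, 17.2 with 40% Defa or more, and 21.4 to 22.8 with 1 library left out. In goblet-like cells it was 21.1, 13.8, 42.7, 11.3 and 35.3, and 19.4 to 22.9 with 1 library left out. Cells with fewer than 8000 UMIs were left out of all values at 8000, here and below. The median IEC-KO goblet-like cell held 5502.5 and 7701 UMIs, so those values rest on the deeper cells only. The median pair ratio of the Paneth class was 1.01 at 2000 UMIs, 1.02 at 8000 and 1.04 unthinned, and that of goblet-like cells 1.06 at 8000. Trib3 with Ddit3 in goblet-like cells had 1.64 at 2000 UMIs, 1.17 at 8000, 1.73 at 1500 outside Defa genes and 1.31 unthinned. A Paneth limit of 50% Defa was not run, since 3 libraries held 0 such cells. With 2 libraries per genotype and 182 to 643 fl/fl cells in the other tested classes, rare members there rest on few UMIs.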
